A study of Mus musculus with 8 samples.

Results

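The formyl peptide receptors are a small family of G protein-coupled receptors, and 7 mouse genes were looked for by symbol: Fpr1, Fpr2, Fpr3, Fpr-rs3, Fpr-rs4, Fpr-rs6 and Fpr-rs7. Rows of the array table that carry exactly 1 of these symbols were taken, whatever their values. Of 23410 rows with a gene symbol, 4 qualified, those of Fpr-rs3, Fpr-rs4, Fpr-rs6 and Fpr-rs7. No row carried the symbol, gene number or accession of Fpr1, Fpr2 or Fpr3, so these 3 genes are not analysed here, and no row joined a family symbol with that of another gene.

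Fpr1 and Fpr2 sit on neutrophils, monocytes and macrophages. They bind N-formylated peptides released by bacteria and mitochondria and steer these cells toward their source, and Fpr2 also binds annexin A1 and serum amyloid A. In the mouse the family has expanded, and Fpr3 and the Fpr-rs genes are expressed in sensory neurons of the vomeronasal organ, the nasal organ that reads pheromones and other social cues. Most of these neurons use receptors of the Vmn1r or Vmn2r families instead, and each neuron expresses few receptor genes. The Fpr-rs genes are known mainly from neurons that signal through the G protein subunit Gnai2.

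The samples were olfactory mucosa of 8 mice of a mixed 129 x C57BL/6J background at postnatal day 1, each hybridised to 1 Affymetrix Mouse Gene 1.0 ST array. The 4 knockouts were 123Cre:Emx2(fl/fl), that is, Cre together with 2 floxed alleles of Emx2. The 4 controls, labelled as littermates, comprised 2 samples of 123Cre:Emx2(fl/+), with Cre and 1 floxed allele (control replicates 1 and 4). The other 2 were Emx2(fl/fl), with 2 floxed alleles and no Cre (control replicates 2 and 3), so every mouse carried at least 1 floxed allele. The promoter used in 123Cre starts Cre in immature olfactory sensory neurons (OSNs), and in the study's reporter cross only part of the OSNs showed recombination. The sources used here do not give its activity in vomeronasal neurons or how much of the vomeronasal organ each dissection held. In these bulk samples fewer cells of a type and less RNA per cell cannot be told apart. All values are the deposited log2 signals, and all differences are knockout minus control on that scale.

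The targeted gene was lower in every sample labelled knockout. Emx2, a homeodomain transcription factor, lay between 10.72 and 11.00 in controls and between 9.80 and 10.01 in knockouts, a difference of -0.94 (SE 0.0817, limma adjusted p = 0.0014). Omp and Gap43, the markers of mature and immature OSNs, were bright, with control means above those of 98.4% and 93.1% of rows, and differed by -0.06 (limma adjusted p = 1.0) and -0.23 (limma adjusted p = 0.564). The array of knockout replicate 2 was least like the others, with a mean correlation of 0.979 where the rest had 0.988 to 0.991.

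The 4 measured receptors differ in how alike their genes are, which bears on how far their array signals can be separated. The windows printed here show that likeness only for the stretch around each start, not for the rest of the coding sequence. They come from RefSeq, assembly GRCm38.p6, and each holds 250 bases before the annotated start in lower case and the first 50 bases from it in capitals. The annotated models are 1032 bases long for Fpr-rs3, 972 for Fpr-rs4, 1020 for Fpr-rs6 and 1017 for Fpr-rs7, all multiples of 3, and all 4 begin with a start codon. The capitals are therefore coding sequence, and the start of the transcript is not given by these models. Fpr-rs3 is at chr17:20624828-20625127 (minus strand), Fpr-rs4 at chr17:18021483-18021782 (plus strand), Fpr-rs6 at chr17:20183048-20183347 (minus strand) and Fpr-rs7 at chr17:20114177-20114476 (minus strand).
Fpr-rs3: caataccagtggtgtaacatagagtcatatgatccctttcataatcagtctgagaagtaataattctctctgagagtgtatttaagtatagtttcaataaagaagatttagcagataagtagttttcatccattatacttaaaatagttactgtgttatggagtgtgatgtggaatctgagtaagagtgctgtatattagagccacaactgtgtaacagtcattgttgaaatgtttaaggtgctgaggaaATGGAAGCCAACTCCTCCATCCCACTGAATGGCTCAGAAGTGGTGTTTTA
Fpr-rs4: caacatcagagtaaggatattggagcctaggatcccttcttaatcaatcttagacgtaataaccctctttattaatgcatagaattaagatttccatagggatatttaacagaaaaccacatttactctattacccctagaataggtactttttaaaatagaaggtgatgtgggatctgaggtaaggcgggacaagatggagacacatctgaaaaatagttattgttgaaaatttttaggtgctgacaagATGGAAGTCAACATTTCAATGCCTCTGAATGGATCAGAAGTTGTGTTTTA
Fpr-rs6: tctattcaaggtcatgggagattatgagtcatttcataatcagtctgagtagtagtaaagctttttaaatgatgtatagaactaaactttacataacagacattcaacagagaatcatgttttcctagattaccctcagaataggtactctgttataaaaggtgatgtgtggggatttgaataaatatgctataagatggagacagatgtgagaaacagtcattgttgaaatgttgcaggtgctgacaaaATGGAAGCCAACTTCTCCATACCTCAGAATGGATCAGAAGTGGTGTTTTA
Fpr-rs7: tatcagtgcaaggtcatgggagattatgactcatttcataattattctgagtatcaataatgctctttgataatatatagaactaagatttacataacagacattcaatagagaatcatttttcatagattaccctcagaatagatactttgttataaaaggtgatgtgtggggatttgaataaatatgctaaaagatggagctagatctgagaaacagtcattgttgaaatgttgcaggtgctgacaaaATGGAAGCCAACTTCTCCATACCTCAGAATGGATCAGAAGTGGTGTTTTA

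Fpr-rs6 and Fpr-rs7 are near copies over the windows shown. They share 50 of the 50 coding bases shown and 89.3% of aligned bases in the stretch before them. The other pairs of these 4 genes share 41 to 45 of the 50 coding bases and 67.8% to 69.9% of the stretch before them. Against the window before Fpr3, that of each Fpr-rs gene was 54.1% to 55.6% identical, and against those of Fpr1 and Fpr2 46.7% to 52.8%. The probes behind the rows are not used here, so whether any of these 4 rows reads RNA of another family member was not tested. Their values are to be read as uncertain in that respect, most of all those of Fpr-rs6 and Fpr-rs7.

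No formyl peptide receptor passed the test between Emx2 knockout and control. All 4 averaged lower in the knockout, with differences of -0.25 to -0.10 on the log2 scale, except that Fpr-rs4 read 0.028 when the arrays were centred on mature OSN genes. In all 4 the samples of the groups overlapped. That centring adds 0.13 to every difference in the table, so it turns the sign of any value less than 0.13 below 0.

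Fpr-rs3 was the brightest of the 4 rows relative to the table, its control mean lying above that of 26.7% of all rows. It read 7.12, 7.10, 7.24 and 7.50 in control replicates 1 to 4 and 7.15, 7.15, 7.06 and 6.74 in knockout replicates 1 to 4. Control replicate 4 was the highest sample and knockout replicate 4 the lowest, while knockout replicates 1 and 2 lay inside the control range. The means were 7.24 ± 0.18 in controls and 7.03 ± 0.19 in knockouts (SD, n = 4 each). The difference was -0.21 (SE 0.123) with a limma adjusted p of 0.904 and an exact permutation p of 0.171. Its 95% interval ran from -0.49 to 0.06, which is -28.9% to 4.58% of the linear signal.

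Fpr-rs4 read 5.18, 5.19, 5.05 and 5.18 in control replicates 1 to 4 and 5.07, 5.20, 5.09 and 4.83 in the knockouts. Knockout replicate 4 was again the lowest sample, knockout replicate 2 the highest, and control replicate 3 lay below 3 of the 4 knockouts. The means were 5.15 ± 0.065 and 5.05 ± 0.16 (SD, n = 4 each), a difference of -0.10 (SE 0.0886, 95% interval -0.30 to 0.10, limma adjusted p = 1.0). The exact permutation p was 0.371.

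Fpr-rs6 read 4.33, 4.44, 4.30 and 4.60 in control replicates 1 to 4 and 4.24, 3.97, 4.11 and 4.37 in the knockouts. Knockout replicates 1, 2 and 3 lay below every control, and knockout replicate 4 lay above control replicates 1 and 3. The means were 4.42 ± 0.14 and 4.17 ± 0.17 (SD, n = 4 each). The difference of -0.25 (SE 0.107, 95% interval -0.49 to -0.01) had an unadjusted limma p of 0.045 and an adjusted one of 0.810. The exact permutation p was 0.0857, where the smallest that 4 against 4 samples can give is 0.0286.

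Fpr-rs7 read 4.49, 4.48, 4.08 and 4.53 in control replicates 1 to 4 and 4.30, 4.25, 4.16 and 4.26 in the knockouts. The knockouts sat close together, below control replicates 1, 2 and 4 and above control replicate 3, which was the lowest of the 8 samples. The means were 4.39 ± 0.21 and 4.24 ± 0.056 (SD, n = 4 each), a difference of -0.15 (SE 0.105, 95% interval -0.39 to 0.09, limma adjusted p = 0.952). The exact permutation p was 0.143.

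**Figure D1:**
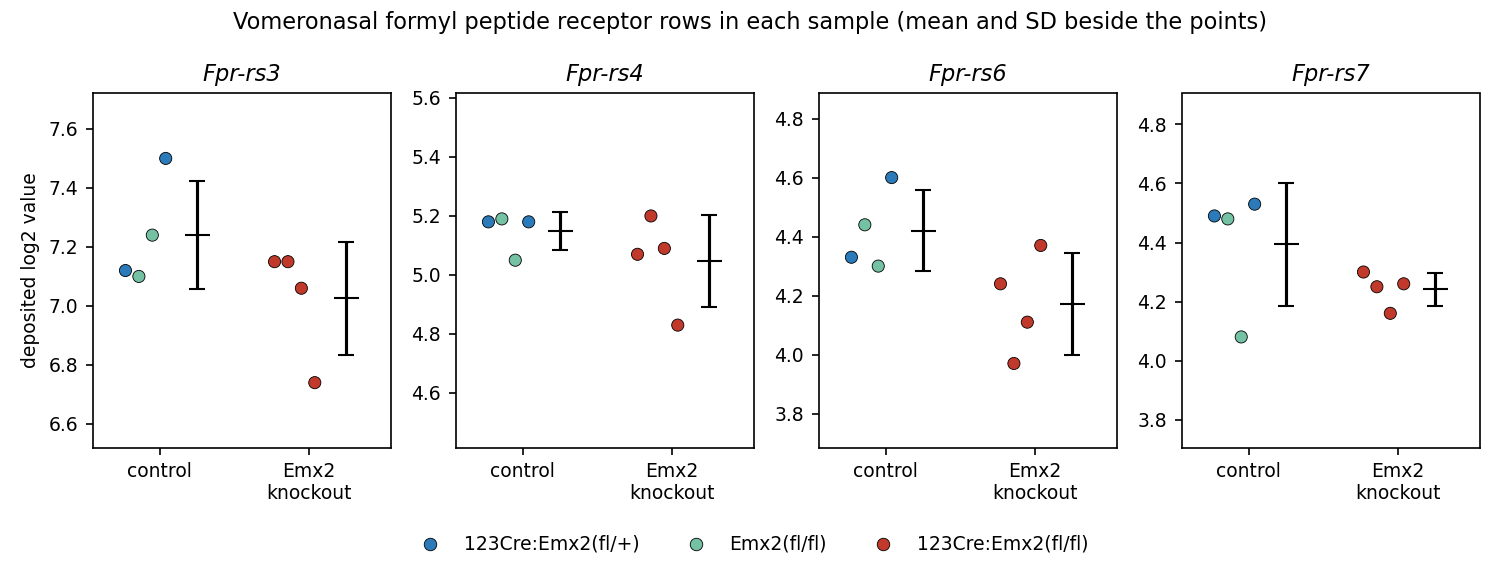
Deposited log2 value (vertical axis) of each measured formyl peptide receptor by group. Each point is a sample, its colour gives the genotype, and the mean and SD of the 4 samples stand beside the points. The groups overlap in every panel, with means of 7.24 and 7.03 for Fpr-rs3, 5.15 and 5.05 for Fpr-rs4, 4.42 and 4.17 for Fpr-rs6, and 4.39 and 4.24 for Fpr-rs7.

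Over all rows tested, 0.350% were called lower in the knockout and 0.00854% higher, and of the 4 receptors 0 were called in either direction by limma or by the methods' t-test. At an unadjusted p under 0.05, limma gave 1 of the 4, Fpr-rs6, against 3.06% of all rows lower at that level, and the methods' t-test gave 0. In 2.54% of all rows every knockout lay below every control, and none of the 4 receptors did so. The median difference of the 4 was -0.18, and that of all rows was 0.0041, with 48.4% of rows below 0. All 4 rows lay among the dimmest 30% of the table, whose upper edge is a row mean of 7.47.

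Without knockout replicate 2, the array least like the others, the differences were -0.26 for Fpr-rs3, -0.15 for Fpr-rs4, -0.18 for Fpr-rs6 and -0.16 for Fpr-rs7, again with no call. Other single samples moved some values more. Without knockout replicate 4, Fpr-rs3 differed by -0.12 and Fpr-rs4 by -0.029, and without control replicate 4, Fpr-rs3 differed by -0.13. Without control replicate 3, Fpr-rs7 differed by -0.26, with an unadjusted limma p under 0.05 and an adjusted one of 0.823. The unadjusted p of Fpr-rs6 stayed under 0.05 in 2 of the 8 such fits. The reading of knockout replicate 2 was the lowest of Fpr-rs6 and the highest of Fpr-rs4 among the 8 samples. Samples numbered 5 to 8 in the titles read -0.12 against those numbered 1 to 4 for Fpr-rs4 and for Fpr-rs7. They differed by 0.10 for Fpr-rs6 and 0.01 for Fpr-rs3, and limma adjusted p ran from 0.337 to 0.972. For Fpr-rs4 the unadjusted limma p was 0.174, and an adjusted p this close to it arises only where many rows have low p-values. By this measure the 2 sets differed in many rows of the table, though none of the 4 receptors passed. The main fit holds no term for the set. With the set as a term in the fit, 103 rows were called lower where the main fit called 82, and no receptor was called. What the title numbers stand for is not given in the labels, and each set of 4 holds 2 controls and 2 knockouts.

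The control group mixes 2 genotypes, and the receptors were set against each. The mean of Fpr-rs3 was 7.31 in 123Cre:Emx2(fl/+), 7.17 in Emx2(fl/fl) and 7.03 in the knockout. That of Fpr-rs4 was 5.18, 5.12 and 5.05 in the same order. That of Fpr-rs6 was 4.47, 4.37 and 4.17, and that of Fpr-rs7 4.51, 4.28 and 4.24. Every receptor was thus highest in the controls with Cre and lowest in the knockout, but no step in this order passed the test in the limma fit with 3 genotypes. By Y-linked genes the controls with Cre were scored female and those without Cre male. Genotype and sex therefore cannot be told apart among the controls.

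Against 123Cre:Emx2(fl/+) alone the differences were -0.28 for Fpr-rs3, -0.13 for Fpr-rs4, -0.30 for Fpr-rs6 and -0.27 for Fpr-rs7, all with a limma adjusted p of 0.994, where 0.179% of all rows were called lower. Against Emx2(fl/fl) alone they were -0.15, -0.07, -0.20 and -0.04 in the same order, all with an adjusted p of 1.0, where 0.132% of rows were called lower. For Fpr-rs7 the difference between the control genotypes, 0.23 (SE 0.135, limma adjusted p = 0.997), was larger than that between the knockout and Emx2(fl/fl). Emx2 itself passed against both, at -0.86 (limma adjusted p = 0.0159) and -1.03 (limma adjusted p = 0.0268).

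These rows are dim, and an array reads some signal for genes that a tissue does not use. Of 20 genes that mark other organs, such as the sperm protamines Prm1 and Prm2 and the lens crystallins Crygb and Crygc, 18 had a row. Their control means ran from 4.77 to 9.39, with a median of 6.65, and 0 of the 18 passed in either direction by limma or the methods' t-test, with 3 and 4 at an unadjusted p under 0.05. Crygb stood at 4.77 and Gh, growth hormone, at 9.39, but Gh varied far more between samples than the others (SE of its difference 0.785). Apart from Gh and Lhb, a pituitary hormone subunit at 9.28, the highest was Prm2, at 7.52. The control means of Fpr-rs6 and Fpr-rs7, at 4.42 and 4.39, were under the lowest of these, that of Fpr-rs4, at 5.15, was inside their range, and that of Fpr-rs3, at 7.24, was inside it too, above the median. Rows of different genes use different probes, so this places the rows on the table's scale and does not order the genes by mRNA. At these levels none of the 4 rows can be told from background signal by its level alone, and a change in a transcript below the array's reach would not be detectable here.

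The family lies in a stretch of chromosome 17 that is crowded with vomeronasal receptor genes, and these neighbours differed more between the groups. In the gene order of GRCm38.p6 the stretch runs from Has1 and Fpr1, Fpr2, Fpr3 and the pseudogene Fpr-rs5 to Fpr-rs4, then through Vmn2r genes to Fpr-rs7 and Fpr-rs6, then through Vmn2r and Vmn1r genes to Fpr-rs3, which is followed by Vmn1r226 to Vmn1r230. Between Fpr-rs4 and Fpr-rs3 are 23 vomeronasal receptor genes, of which 10 had a row. By limma 3 of the 10 fell, 9 of 10 were below 0, and their median difference was -0.61.

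Vmn2r105, the next gene after Fpr-rs6, fell by 1.27 (SE 0.179, limma adjusted p = 0.0237). Vmn2r93 fell by 0.92 (SE 0.134, limma adjusted p = 0.0288) and Vmn2r96 fell by 0.88 (SE 0.0967, limma adjusted p = 0.00617). At the other end, Vmn2r109 differed by 0.01. The receptor that precedes Fpr-rs7, Vmn2r104, differed by -0.38 (limma adjusted p = 0.733), and the one that precedes Fpr-rs3, Vmn2r110, by -0.62 (limma adjusted p = 0.0805).

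Of 6 measured vomeronasal receptors just outside the stretch, 1 fell and all 6 were below 0. It was Vmn1r228, with a difference of -1.12 (SE 0.108, limma adjusted p = 0.00263). The 4 measured neighbours of other families, Riok2, Lix1, Spaca6 and Has1, differed by -0.14 to 0.04, with 0 called and 0 at an unadjusted limma p under 0.05. Of all 16 measured vomeronasal neighbours 4 fell. The count became 2 when control replicate 2 or knockout replicate 1, 3 or 4 was dropped, and 7 when knockout replicate 2 was. When each sample was dropped in turn, Vmn2r93 did not pass in 7 of 8 fits (all but that without knockout replicate 2) and Vmn2r105 in 5 of 8 (control replicates 2 and 3 and knockout replicates 1, 3 and 4), with adjusted p up to 0.124 and 0.0909. Vmn2r96 and Vmn1r228 passed in all 8. Against the Cre-free Emx2(fl/fl) controls alone 0 of the 16 passed, with an adjusted p of up to 0.107 for Vmn2r96 and 0.0913 for Vmn1r228, and against 123Cre:Emx2(fl/+) alone 2 did. By the methods' t-test only Vmn1r228 of these 4 passed, with an adjusted p of 0.0495.

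**Figure D2:**
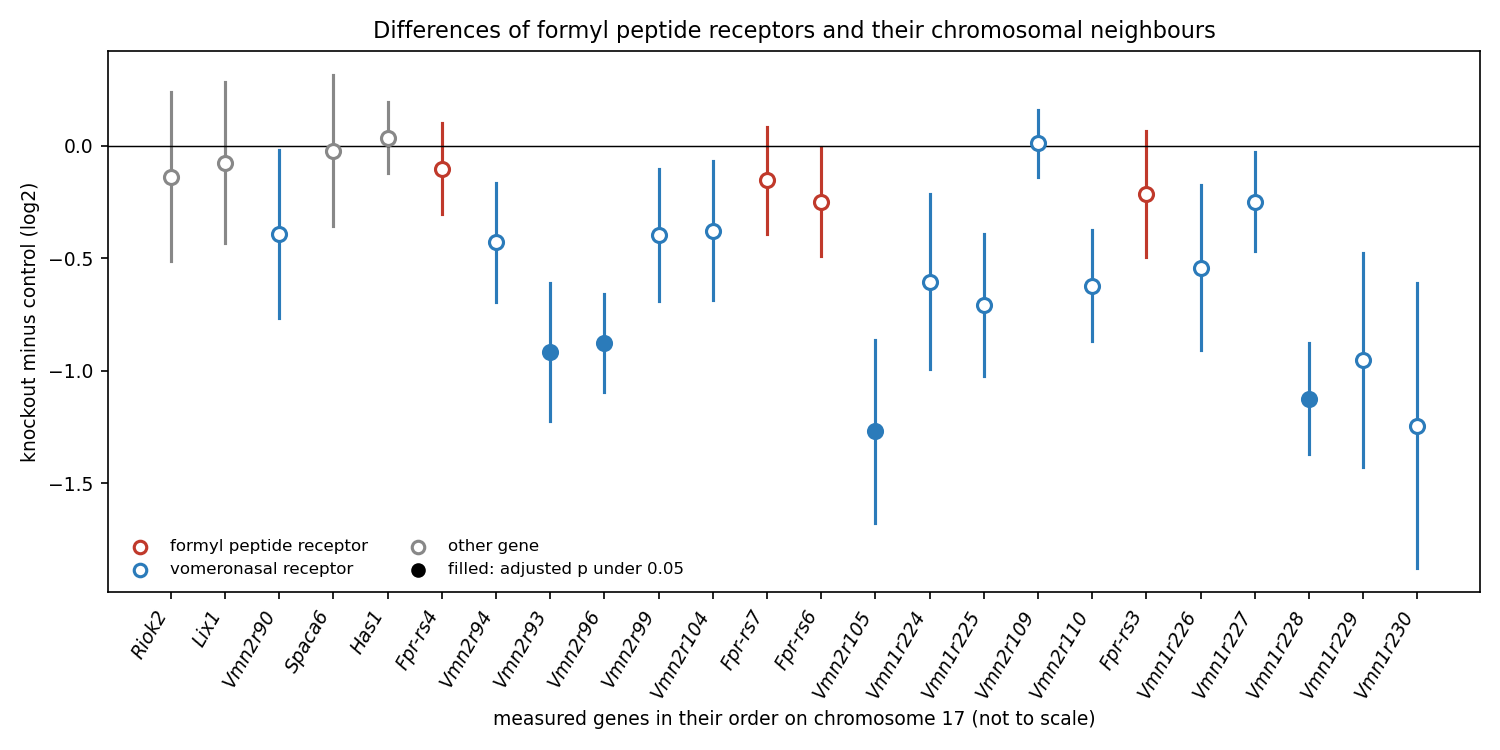
Knockout minus control difference with its 95% interval (vertical axis, log2) for measured genes of the chromosome 17 stretch, in gene order and not to scale along the horizontal axis; formyl peptide receptors, vomeronasal receptors and other genes are set apart by colour and filled points passed an adjusted p under 0.05. The formyl peptide receptors lie between -0.25 and -0.10, and the vomeronasal receptors between them run from -1.27 to 0.01.

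Set against these neighbours within each sample, the receptors stood higher in the knockout. The mean of the 10 vomeronasal receptor rows between them was 5.77, 5.78, 5.75 and 6.02 in control replicates 1 to 4 and 5.20, 5.31, 5.24 and 5.09 in the knockouts. Each receptor's value minus that mean was higher in the knockout, by 0.40 for Fpr-rs3, 0.52 for Fpr-rs4 and 0.46 for Fpr-rs7, with every knockout above every control and an exact permutation p of 0.0286 each, the smallest the design can give. For Fpr-rs6 it was higher by 0.37, with 3 of 4 knockouts above every control and an exact permutation p of 0.0571. With all 16 vomeronasal neighbours in the mean the values were 0.45, 0.57, 0.51 and 0.42, with the same p. These comparisons were added after the data had been seen. Of all other rows, treated the same way, 76.1% had every knockout above every control, so the pattern is not particular to formyl peptide receptors. The subtracted mean was itself lower in every knockout than in every control. These exact p-values therefore mostly restate the lower mean of the neighbours.

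The vomeronasal receptor rows called lower were few among the dimmest rows, so brightness was set beside the comparison. Of 170 rows of Vmn1r and Vmn2r genes (pseudogene symbols left out, some genes in several rows), 59 had a control mean at or below that of Fpr-rs4. Among these 59, 1 was called lower, Vmn2r78, at 4.40 ± 0.058 in controls and 3.88 ± 0.073 in knockouts (SD, n = 4 each; limma adjusted p = 0.0139). Their median difference was -0.18, and 50 of 59 were below 0. Among the 111 brighter rows, 34 were called lower, with a median of -0.52. Dropping knockout replicate 1 made that count 16, and dropping any of control replicates 2 to 4 or knockout replicates 3 and 4 made it 20 or 21. It was 6 by the methods' t-test, 12 with 123Cre:Emx2(fl/+) controls alone, 6 with Emx2(fl/fl) controls alone, 24 with all rows tested and 54 with array weights. With the dimmest 30% of rows left out it was 2, but most of the 111 rows were then not tested, since their mean was under 7.47. Vmn2r78 did not pass in 5 of 8 fits with a sample dropped (control replicates 1, 2 and 4 and knockout replicates 1 and 3). Fpr-rs4 at -0.10, Fpr-rs6 at -0.25 and Fpr-rs7 at -0.15 lay near the median of these dim rows.

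Fpr-rs3 sits higher on this scale. At or below its control mean of 7.24 were 155 of the 170 rows, with 24 called lower and a median of -0.33. Of the 15 rows above it 11 were called lower, with a median of -1.33. Dropping knockout replicate 1 made that count 5, dropping control replicate 2 made it 6, and dropping control replicate 1 or 3 or knockout replicate 3 made it 7. It was 3 by the methods' t-test, 3 with 123Cre:Emx2(fl/+) controls alone and 2 with Emx2(fl/fl) controls alone. With the dimmest 30% of rows left out it was 2, but most of the 15 rows were then not tested, since their mean was under 7.47. The interval of Fpr-rs3, whose lower end is -0.49, does not reach that median. Whether its difference is smaller than those of single receptors of like brightness was not tested. The control mean enters both the brightness and the difference, so chance highs in the controls lean the 2 together.

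**Figure D3:**
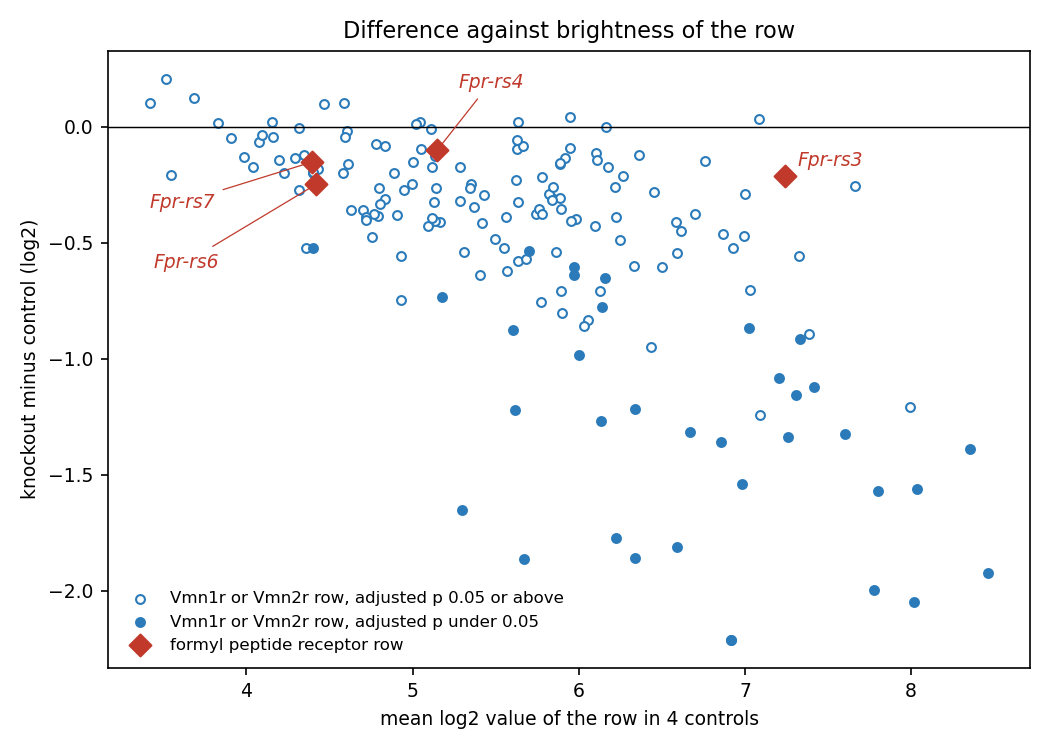
Knockout minus control difference (vertical axis, log2) against the mean log2 value in 4 controls (horizontal axis) for vomeronasal receptor rows, filled where the adjusted p is under 0.05, and for the 4 formyl peptide receptors. Fpr-rs4, Fpr-rs6 and Fpr-rs7 lie among dim rows near 0, and Fpr-rs3, at 7.24, lies above most rows of its brightness.

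The genes that feed or carry formyl peptide receptor signals did not pass the test. Of 26 listed, 22 were measured: ligands such as annexin A1, the Gi proteins and their effectors, and the oxidase that neutrophils switch on. By limma 0 were called and 2 had an unadjusted p under 0.05, 8 of 22 were below 0, and the median was 0.02; the methods' t-test called 0, with 3 at an unadjusted p under 0.05. Among the ligands, Camp, the cathelicidin precursor, differed by 0.24 (SE 0.0890, limma adjusted p = 0.764), Saa3, a serum amyloid A, by -0.15 (SE 0.246, limma adjusted p = 1.0) and Anxa1 by 0.01 (SE 0.125). Gng2, a G protein gamma subunit, had the widest difference, -0.30 (SE 0.0847, limma adjusted p = 0.447), and Cybb, the catalytic oxidase subunit, differed by -0.19 (SE 0.113, limma adjusted p = 0.920).

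Receptors that guide leukocytes as formyl peptide receptors do did not pass either. Of 12 listed, 11 were measured, 0 were called and 0 had an unadjusted p under 0.05 by limma or the methods' t-test, with a median of 0.06. Control means of the 11 ran from 6.09 to 8.91 with a median of 7.02, inside the range of the genes of other organs. By level alone these rows cannot be told from background signal. C3ar1 and C5ar1, receptors of complement fragments, differed by -0.15 (SE 0.131) and -0.14 (SE 0.150). Gpr33 and Gpr1, of the same branch of receptors, differed by 0.15 (SE 0.0823) and 0.11 (SE 0.109).

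Of 10 genes of vomeronasal neuron signalling and identity 9 were measured, and 1 fell. It was Calr4, a calreticulin of vomeronasal neurons, which went from 9.22 in controls to 7.15 in knockouts, a difference of -2.07 (SE 0.247, limma adjusted p = 0.0095). It did not pass without knockout replicate 1 (adjusted p = 0.0530) or by the methods' t-test (adjusted p = 0.120), nor against either control genotype alone (adjusted p up to 0.257). Tfap2e, a transcription factor of basal vomeronasal neurons, differed by -0.24 (SE 0.181, limma adjusted p = 0.979) and Gnao1, their G protein subunit, by -0.17 (SE 0.0686, limma adjusted p = 0.785). Gnai2, the subunit of the neurons in which Fpr-rs genes are known, differed by 0.07 (SE 0.138, limma adjusted p = 1.0), and Meis2, a marker of those same neurons, by -0.15 (SE 0.0828, limma adjusted p = 0.894). Both subunits and Meis2 are also expressed outside the vomeronasal organ. Trpc2, the channel of vomeronasal neurons, had no row with its symbol alone and is not analysed here. The median of the 9 was -0.12.

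The H2-M10 genes are class Ib histocompatibility genes that basal vomeronasal neurons co-express with Vmn2r receptors. They were listed together with H2-M1 and H2-M9, and all 8 genes of the list were measured. Control means ran from 4.79 to 7.28 with a median of 5.90, inside the range of the genes of other organs. By limma 0 were called, 2 had an unadjusted p under 0.05, 3 were below 0, and the median was 0.06. H2-M10.3 differed by -0.46 (SE 0.0851, limma adjusted p = 0.108) and H2-M10.1 by 0.25 (SE 0.0808, limma adjusted p = 0.665). H2-M10.5 differed by 0.13 and H2-M9 by 0.10. By the methods' t-test 0 of the 8 were called, with 2 at an unadjusted p under 0.05.

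The receptor families of the same tissues give the scale of these differences. The median difference was -0.35 over 117 Vmn1r genes and -0.39 over 46 Vmn2r genes. It was -0.19 over 1027 odorant receptor genes and -0.16 over 13 trace amine-associated receptor genes. The median of the formyl peptide receptors, -0.18, was near the medians of odorant and trace amine receptors and nearer 0 than those of both vomeronasal families. These medians are not matched for brightness. The 59 vomeronasal receptor rows with a control mean at or below that of Fpr-rs4 also had a median of -0.18, and Fpr-rs4, Fpr-rs6 and Fpr-rs7 lie in that range.

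Marker lists of leukocytes, which carry Fpr1 and Fpr2, were read as well. All 12 neutrophil markers were measured, 0 were called, 1 (Elane) had an unadjusted limma p under 0.05 (2 by the methods' t-test), 2 were below 0, and the median was 0.17. The mean of the 12 lay between 7.99 and 8.40 in controls and between 8.15 and 8.67 in knockouts. Control means of single neutrophil markers ran from 6.36 to 11.7. All but Lcn2, Ltf and Mmp9 were inside the range of the genes of other organs. These bright rows lift the level of the mean, and which cells they read was not tested. Ngp, a neutrophil granule protein, differed by 0.62 (SE 0.317, limma adjusted p = 0.870), Mmp9, a secreted protease, by 0.51 (SE 0.476), and the calcium-binding proteins S100a9 and S100a8 by 0.35 (SE 0.198) and 0.27 (SE 0.201). Of 12 macrophage and monocyte markers 0 were called and 0 had an unadjusted p under 0.05 by either test, with a median of -0.05, and their mean lay between 8.64 and 9.01 in controls and between 8.52 and 9.07 in knockouts. Single macrophage and monocyte markers had control means of 7.26 to 11.1, in part inside the same range of other organs. No marker of these lists was at 0, since array values have no true zero.

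Markers of other cells that the dissection can hold had 0 calls in either direction by limma or the methods' t-test. All 7 skeletal muscle markers and all 8 measured markers of respiratory ciliated cells were above 0 (medians 0.10 and 0.25), all 7 measured markers of olfactory bulb and brain were below 0 (median -0.31), and 13 of 17 mature OSN and 9 of 10 immature OSN markers were below 0. At an unadjusted p under 0.05 limma gave 2, 3, 1, 5 and 4 of them in that order, and the methods' t-test 1, 0, 1, 7 and 2. Their part in the differences of the receptors was not tested.

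**Figure D4:**
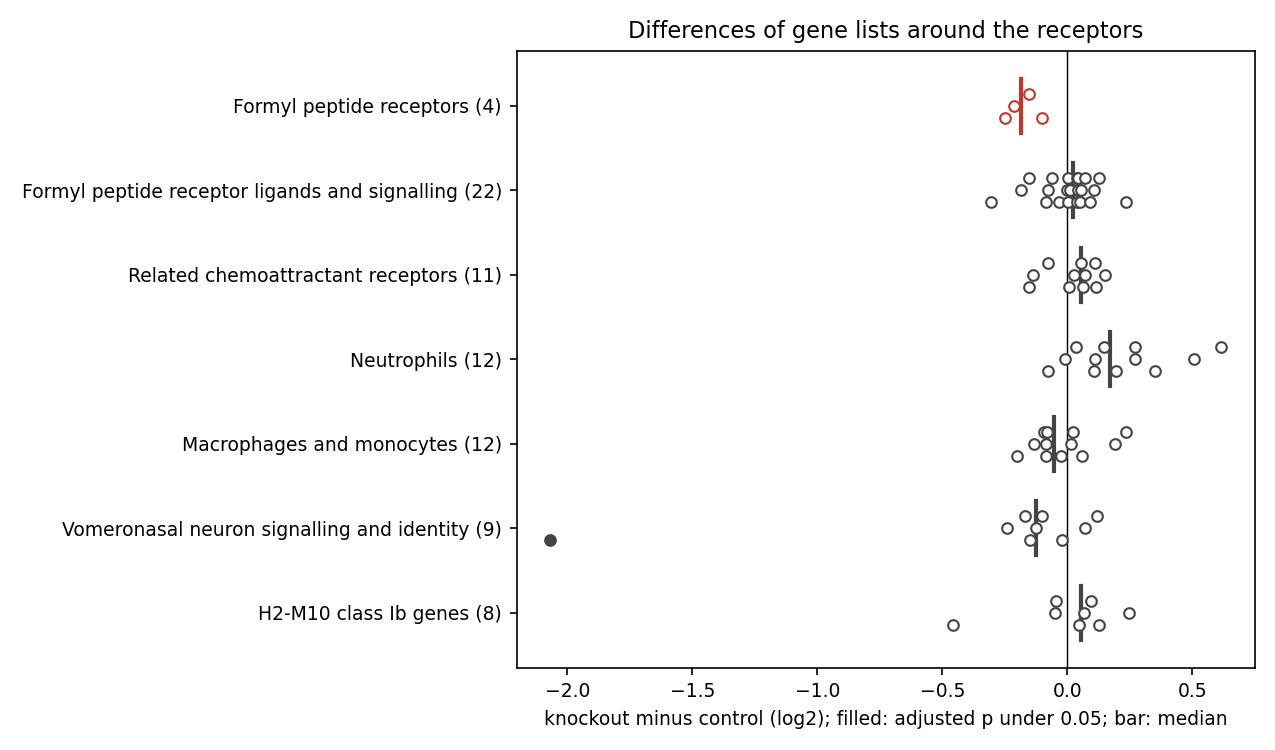
Knockout minus control difference (horizontal axis, log2) of every measured gene of the lists named on the vertical axis, 1 point per gene, with the list median marked and filled points at an adjusted p under 0.05. The 4 formyl peptide receptors lie between -0.25 and -0.10 with no filled point, and the only filled point is Calr4, at -2.07.

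The rows whose course over the 8 samples came closest to each receptor were found from the root mean square difference of their values, each minus its row mean. For Fpr-rs3 they were Vav3 (0.0894), Vmn1r199 (0.0928) and Vmn1r218 (0.0972). For Fpr-rs4 they were Cd4 (0.0398), Adamts3 (0.0499) and Prl7d1 (0.0505). For Fpr-rs6 they were Cdkl4 (0.0760), Olfr530 (0.0804) and Jarid2 (0.0850). For Fpr-rs7 they were 3830417A13Rik (0.0671), H3c15 (0.0749) and Ppp2r5c (0.0796). Of the 12, 2 are vomeronasal receptors, both of them listed for Fpr-rs3. Among the 21789 rows with 1 symbol, 119 were of Vmn1r and 56 of Vmn2r genes.

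Such closeness was common. A flat row would lie 0.195 from Fpr-rs3, 0.115 from Fpr-rs4, 0.184 from Fpr-rs6 and 0.153 from Fpr-rs7, and 2263, 2053, 3339 and 1607 rows lay nearer than that in the same order. Among the receptors themselves the same measure was 0.141 between Fpr-rs3 and Fpr-rs4 and between Fpr-rs4 and Fpr-rs7, 0.146 between the near copies Fpr-rs6 and Fpr-rs7, and up to 0.224 between Fpr-rs3 and Fpr-rs6. All points share the same 8 arrays.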

How the data were processed

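Total RNA of the olfactory mucosa of 8 mice was labelled with biotin and hybridised to GeneChip Mouse Gene 1.0 ST arrays, 1 per sample. The authors deposited log2 signals, with 1 value per transcript cluster. Affymetrix Expression Console is named in the submitters' processing notes; the sources used here give neither its version nor the background correction and normalization. The deposited values were used as they stand, so genes with near-identical copies may share signal. Groups were taken from the labels, which give neither litter nor batch. Replicate numbers follow the order of deposition and pair no samples. The labels call the controls littermates but do not say which mice shared a litter. The study states that every litter used for knockouts also gave controls. The fits hold no term for litter, and p-values reflect only the spread between these 8 mice, part of which may be technical. No 2 arrays held the same values, and the smallest root mean square difference between arrays was 0.202. The number of arrays limits the precision.

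The table has 35557 rows, 21789 with 1 gene symbol, 1621 with several and 12147 with none in the platform annotation. Of those with 1 symbol, 21698 matched GRCm38.p6 by gene number. The 23410 rows with a symbol were fitted by lmFit and eBayes of limma 3.58.1 under R 4.3.3, as a two-sided test without covariates and with Benjamini-Hochberg adjustment over all of them. A row was called at an adjusted p under 0.05. The methods' t-test is an equal-variance t-test of the same deposited values, adjusted and called in the same way. The study ran its t tests on values normalised to mature OSN mRNAs and used other thresholds, so these calls are not a repeat of its own. For single rows an exact permutation test (two-sided, 70 assignments of samples) was run as well. Intervals are 95% intervals of the limma fit. Where a listed gene had several rows, the brightest was used. Identity of the upstream windows was taken from global alignments with Biopython 1.88.

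The members and lists were chosen with earlier results of these data known. Named are all members, Emx2, Omp and Gap43, genes of a list that were called or had its 4 largest differences, up to 5 genes on either side of the family and the genes within it, and the 3 rows most alike to each member. Elane, Lcn2, Ltf, Saa3, Anxa1, Gnai2, Vmn2r78 and the genes of other organs named as examples are mentioned with their values already known. The limma fit was checked on simulated data. Results were recomputed with the methods' t-test, with quantile normalization, with centring on mature OSN genes or on the median, a filter of the dimmest 30% of rows, all rows, array weights, robust fitting with a variance trend, title numbers or sex (from Y-linked genes) as a term, each control genotype alone, each sample left out, and an adjusted p under 0.10.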

Additional observations from a re-analysis of the deposited data

Results flagged for a closer look

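In 2 of the 8 sets of 4 samples examined (4 receptors in 2 groups), a sample lay far from the other 3, and both times it was control replicate 3, an Emx2(fl/fl) sample. Its Fpr-rs4 value was 5.05, with a gap to the next control of 0.899 of the group's range, and its Fpr-rs7 value was 4.08, with a gap of 0.879, both above Dixon's 95% critical value for 4 samples. Without this sample the difference of Fpr-rs7 was -0.26, with an unadjusted limma p under 0.05 and an adjusted one of 0.823, against -0.15 with it, and that of Fpr-rs4 was -0.13 against -0.10. Chance flags about 1 in 20 groups. Fpr-rs6 in this sample, 4.30, was the lowest control as well, while Fpr-rs3, 7.24, was not.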

How the results depend on the processing

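No receptor was called in any alternative that gave a value. The filter of the dimmest 30% of rows left out all 4. Over 19 alternatives each, Fpr-rs3 ran from -0.30 (array weights) to -0.09, Fpr-rs6 from -0.31 (without knockout replicate 4) to -0.12 (array weights) and Fpr-rs7 from -0.27 (123Cre:Emx2(fl/+) controls only) to -0.02, all below 0, with lowest adjusted p of 0.257, 0.548 and 0.655. Fpr-rs4 ran from -0.15 to 0.028 (lowest adjusted p 0.426) and reversed under 1 setting, centring on 17 mature OSN genes, at 0.028. That centring adds 0.13 to every row's difference and also gave the upper ends for Fpr-rs3 and Fpr-rs7. An unadjusted p under 0.05 was reached in 7 alternatives for Fpr-rs6, 2 for Fpr-rs7, 1 for Fpr-rs3 and 0 for Fpr-rs4. With sex as a term Fpr-rs6 differed by -0.24 and did not reach it. Control replicates 2 and 3 and knockout replicates 1, 2 and 4 were scored male, so sex coincides with genotype among the controls. Xist read 9.15 and 9.93 in knockout replicates 1 and 4, between the other males (up to 7.29) and the females (from 12.5), so these scores are uncertain. Leaving out each sample in turn kept 0 receptors called in both directions. Calls lower over all rows numbered 82, 28 by the methods' t-test, 27 with the filter, 172 with array weights, 32 and 24 against the controls with and without Cre, and 46 to 109 with a sample left out. No paired analysis was possible because the replicate numbers only follow the order of deposition and the labels name no litter. The dimness of these rows limits what can be detected.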
